A study of Mus musculus with 69 samples.

Results

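The levels of 5 genes of the neurotrophin system were followed in the hippocampus of male mice: the growth factors Bdnf, Ntf3 and Ntf5, the receptor Ntrk3 and the sorting receptor Sort1. They were taken by name and are 5 of the 9930 genes with a complete record. The mice either lacked Cdh13, which encodes T-cadherin, a cell adhesion protein (ko), or were wildtype (wt). Litters were taken from the dam for 3 h each day from postnatal day (P) 1 to 14 (maternal separation, MS), or were handled controls (Ctr). Tissue was cut from frozen brain slices of animals killed at weaning (P22) or as adults (P66), with 1 library per animal and 69 in all. At P22 there were 8 Ctr wt, 11 MS wt, 9 Ctr ko and 10 MS ko animals, and at P66 the groups held 7, 10, 7 and 7 in that order. The animals came from 2 breeding cohorts, which the groups did not share evenly: MS ko held 2 animals of cohort 1 and 8 of cohort 2 at P22, and 5 and 2 at P66.

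Neurotrophins are secreted proteins that keep neurons alive and shape their synapses. They are made as precursors (proneurotrophins), are cleaved to mature factors, and signal through Trk receptor tyrosine kinases, while the precursors bind the p75 receptor together with sortilin. BDNF, encoded by Bdnf, and neurotrophin-4/5, encoded by Ntf5, act mainly on TrkB; neurotrophin-3, encoded by Ntf3, acts mainly on TrkC, the product of Ntrk3. Sortilin, encoded by Sort1, also steers proBDNF into secretory vesicles. In the hippocampus BDNF is known for its part in long-term potentiation, and neurotrophin-3 is made largely by granule cells of the dentate gyrus. The table as held ends on chromosome 8. The genes of TrkB and p75, Ntrk2 and Ngfr, and Cdh13 itself were not analysed here. The labels of genotype therefore have no check on the level of Cdh13.

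Bdnf is transcribed from several alternative starts, some of which respond to neuronal activity through the factor CREB, and its counts sum over all of them. The RefSeq promoter table (GRCm38.p6) held 7 start windows of Bdnf and 2 of Ntf3, each of 300 bases, and none was matched for Ntf5, Ntrk3 or Sort1. The windows were searched on both strands for the CREB element (CRE) TGACGTCA, for its core ACGTCA, which is part of it, and for the E-box CACGTG, which basic helix-loop-helix factors bind. The full element was in none of the 9 windows and is in 1.79% of all 32851 windows of this length. Its core was in 1 of the 7 Bdnf windows (7.51% of all windows), with its first base at -36 from the start. The E-box was in 1 of the 2 Ntf3 windows (7.15% of all windows), at -231. These are matches of letters and not measured sites. The 250 bases before the start are shown for these windows and, to show a Bdnf start without either match, for the one furthest upstream in the gene, with the matched letters in capitals.
Bdnf start with the CRE core, chr2:109692186-109692435 on the + strand: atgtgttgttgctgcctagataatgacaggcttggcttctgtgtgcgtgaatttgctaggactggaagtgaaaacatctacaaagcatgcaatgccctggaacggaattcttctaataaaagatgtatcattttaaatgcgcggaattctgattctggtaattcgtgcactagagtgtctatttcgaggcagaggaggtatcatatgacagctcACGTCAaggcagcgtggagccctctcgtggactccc
Bdnf furthest upstream start, chr2:109674450-109674699 on the + strand: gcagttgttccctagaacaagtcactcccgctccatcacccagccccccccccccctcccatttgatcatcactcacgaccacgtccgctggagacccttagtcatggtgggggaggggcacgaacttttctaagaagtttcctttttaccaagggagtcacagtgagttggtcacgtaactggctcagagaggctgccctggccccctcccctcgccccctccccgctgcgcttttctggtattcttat
Ntf3 start with the E-box, chr6:126166745-126166994 on the - strand: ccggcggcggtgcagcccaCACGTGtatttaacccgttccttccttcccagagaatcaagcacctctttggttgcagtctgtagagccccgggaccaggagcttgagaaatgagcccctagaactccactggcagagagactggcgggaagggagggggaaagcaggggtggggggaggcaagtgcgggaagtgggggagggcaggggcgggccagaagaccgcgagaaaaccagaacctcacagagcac

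Per GENCODE M21 on GRCm38, whose positions for all 5 genes were the same as in the table, Bdnf (ENSMUSG00000048482.14) lies at chr2:109674700-109727007 on the + strand with 11 transcripts. Ntf3 (ENSMUSG00000049107.13) lies at chr6:126101412-126166910 on the - strand and Ntf5 (ENSMUSG00000074121.3) at chr7:45413695-45417179 on the + strand. Ntrk3 (ENSMUSG00000059146.12) spans chr7:78175959-78738012 on the - strand with 20 transcripts, so full-length and truncated TrkC cannot be told apart in a count per gene. Sort1 (ENSMUSG00000068747.14) lies at chr3:108284082-108361511 on the + strand. Bdnf shares 896 exonic bases with the antisense gene Gm45346, and Sort1 shares 338 with the antisense gene Gm12523; how strand was treated in counting is not given in the sources used here, so reads from these stretches may belong to either gene.

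Library totals over the held chromosomes lay around a median of 13.3 M counts (M, mega), from 11.3 to 16.4 M, and levels are given as counts per M counts (CPM) on library sizes scaled by the trimmed mean of M-values (TMM). Dentate granule cell markers (7 of the 11 listed were in the table) summed to 1057 to 1871 CPM, and CA pyramidal cell markers (10 of 16) to 5247 to 8321 CPM, with Prox1 and Slc17a7, defining genes of the first and of glutamatergic neurons, at means of 322.7 and 3576 CPM at P22. Choroid plexus markers (9 of 18), which belong to a neighbouring tissue, ranged from 57.6 to 668.1 CPM in sum, and 6 libraries lay more than 2 log2 units below the median of their mean. The labels name no litters, and because separation acts on whole litters its errors may be too small. A level in bulk tissue cannot tell fewer cells of a type from less RNA per cell.

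Sort1 was by far the most abundant of the 5 genes and Ntf5 the least. Per kb of exon the mean level over all 69 libraries was 213.7 CPM for Sort1, which placed it at percentile 97.8 of 7121 genes. Only genes past the count filter with a known exon length were ranked, so genes of very low count are left out. Ntrk3 (18.3 CPM per kb, percentile 61.8), Bdnf (15.2, percentile 56.3) and Ntf3 (11.4, percentile 48.95) lay near the middle of the ranked genes. The length is the union of all annotated exons, 30.17 kb for Ntrk3 over 20 transcripts and 6.22 kb for Bdnf. Levels per kb depend on this choice. Without scaling by length the means were 551.6 CPM for Ntrk3 and 94.39 CPM for Bdnf. Ntf5 stood at 0.266 CPM per kb, percentile 3.6, with 1 to 27 counts per library. For Ntf5 the counting error at its mean count was 32.7% of the level, so the data resolve only large differences of this gene; the counting error of Bdnf was 2.82% and that of Sort1 0.682%. Beyond counting error, animals of 1 group varied by 12.4% in Bdnf, 13.99% in Ntf3, 11.4% in Ntrk3 and 7.08% in Sort1 (biological coefficient of variation). The median of the 200 genes nearest in level was 7.3% for Bdnf, 10.96% for Ntf3, 7.81% for Ntrk3 and 8.24% for Sort1. Bdnf, Ntf3 and Ntrk3 thus varied more between animals than the middle gene of like abundance, and Sort1 less.

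**Figure D1:**
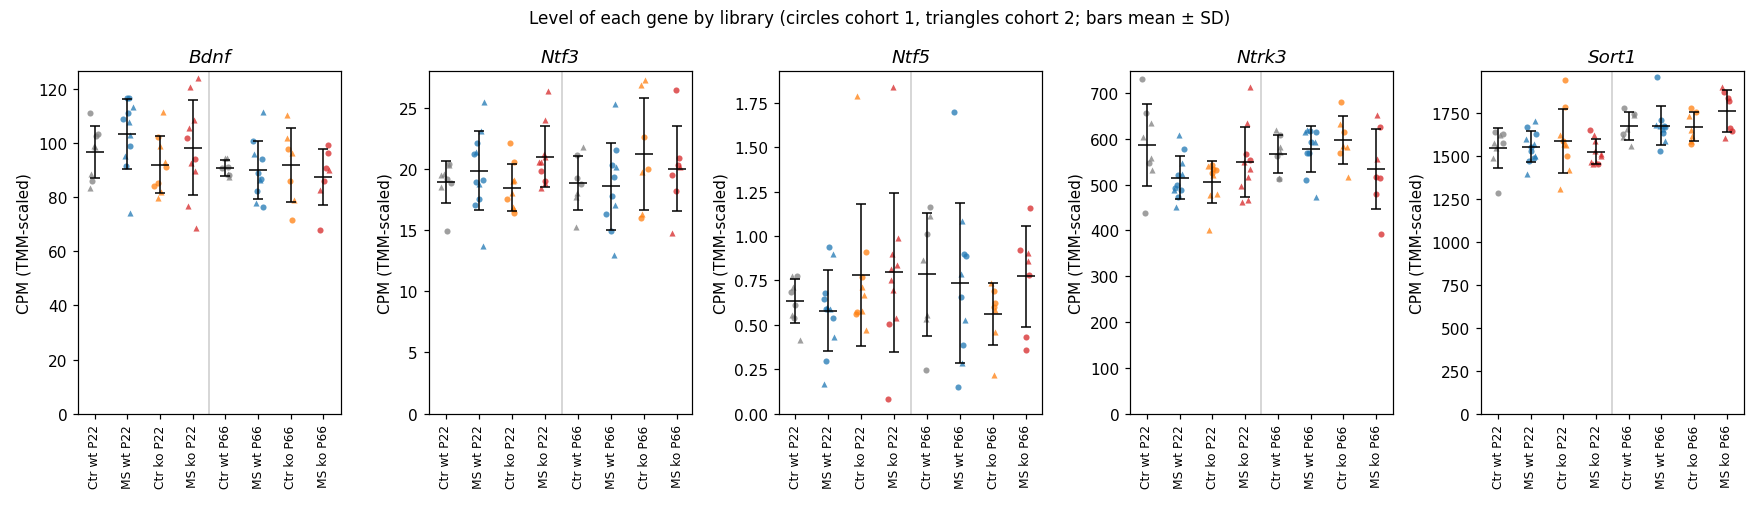
Level of each gene in every library, in TMM-scaled CPM on an axis from 0, for the 8 groups with P22 left and P66 right of the grey line (circles cohort 1, triangles cohort 2; bars mean ± SD). The groups of each gene overlap, and Sort1 sits highest in MS ko animals at P66 with a mean of 1764 CPM.

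Of age, genotype and separation, age was the only factor for which a member of the family was called. At P66 Sort1 was higher than at P22 by a log2 change of 0.12 ± 0.0247 (SE, 31 against 38 animals; 1.09-fold) and Bdnf was lower by a log2 change of -0.11 ± 0.0448 (1.08-fold). Both passed at adjusted p = 3.22e-05 and 0.0276 in that order (edgeR quasi-likelihood test with cohort as a term, Benjamini-Hochberg over 7131 genes). So 2 of the 5 members were called, against 52% of all genes tested; of all genes 26.2% were called higher and 25.8% lower, so a call with age does not set these members apart. DESeq2 and limma-voom also called 2. Ntrk3, Ntf3 and Ntf5 were not called.

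Sort1 in Ctr wt animals ran from 1286 to 1643 CPM (median 1578) at P22 and from 1560 to 1782 (median 1656) at P66. In MS wt animals the lowest, median and highest were 1397, 1554 and 1703 CPM at P22 and 1529, 1671 and 1963 at P66. Ctr ko animals spanned 1307, 1573 and 1941 CPM at P22, and 1570, 1655 and 1780 at P66. The median was higher at P66 in each of these 3 groups, while the ranges overlapped. MS ko animals ran from 1453 to 1652 CPM (median 1505) at P22 and from 1604 to 1900 (median 1821) at P66, so that in this group the ages barely overlapped. Of the 31 animals at P66, 28 lay above the P22 median of their own genotype and rearing. The change was called within MS ko animals alone (log2 change 0.19 ± 0.0510, adjusted p = 0.0054; 19.2% of all genes were called there, 8.16% higher). It was 0.12 in Ctr wt, 0.11 in MS wt and 0.07 in Ctr ko animals without a call. The change did not pass a test of a difference between the groups: the 3-way term of age, genotype and separation was 0.12 (95% interval -0.07 to 0.32, adjusted p = 0.512). Each cohort alone gave 0.12 and 0.13, both called, and without any 1 library the value ran from 0.11 to 0.14 and was called in 69 of 69 fits.

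Bdnf differed less with age and with a wider spread. Ctr wt animals had 83.6, 98.6 and 111.2 CPM (lowest, median, highest) at P22 and 87.6, 90.9 and 94.6 at P66. MS wt animals had the highest median of all groups at P22, 107.7 CPM (73.99 to 116.8), and the lowest at P66, 87.8 CPM (76.4 to 111.5). The ranges of the 2 ages overlapped in both wildtype groups. Ctr ko animals had 79.6, 91.1 and 111.6 CPM at P22 and 71.4, 96.3 and 110.4 at P66, a higher median at the later age. MS ko animals had 68.7, 98.0 and 123.9 CPM at P22, the widest range of any group, and 68.1, 90.1 and 99.2 at P66. Of the 31 adults 25 lay below the P22 median of their group. Within single groups the change was called in MS wt animals (log2 change -0.20 ± 0.0795, adjusted p = 0.0481; 30.8% of all genes were called there, 16.4% lower). It was -0.17 in MS ko, -0.09 in Ctr wt and 0.00 in Ctr ko animals without a call, and the difference of the change between separated and control animals was -0.14 (95% interval -0.31 to 0.04, adjusted p = 0.873).

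The change of Bdnf with age was called in 1 of the 2 cohorts alone, and its call depended on single animals. In cohort 1 the log2 change was -0.17 ± 0.0559 (adjusted p = 0.0194), and in cohort 2 it was -0.06 ± 0.0733 (adjusted p = 0.558); whether the cohorts differ was not tested. Leaving out 1 of 5 libraries took the adjusted p past the threshold: 0.0506 without MS ko P22 animal C2-77, 0.0536 without MS wt P22 animal C1-43, 0.0537 without MS wt P22 animal C1-51, 0.0523 without MS wt P66 animal C1-30 and 0.0557 without MS wt P66 animal C2-64. The value moved only between -0.13 and -0.10 in the 69 such fits.

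Ntrk3 differed between P66 and P22 by a log2 change of 0.08 ± 0.0401 (95% interval 0.00 to 0.16, adjusted p = 0.101), which did not pass. Here 21 of 31 adults lay above the P22 median of their group. With choroid plexus and oligodendrocyte scores as covariates its sign turned, to -0.20 ± 0.0837 (adjusted p = 0.0887), again without a call. Without 1 of 3 libraries the main value was called, with an adjusted p = 0.0474 without MS ko P22 animal C2-63, 0.0422 without MS ko P66 animal C1-56 and 0.0401 without MS wt P66 animal C2-64. Within Ctr ko animals the change was called (log2 change 0.24 ± 0.0821, adjusted p = 0.023; 28.1% of all genes were called there, 13.3% higher): the lowest, median and highest levels were 400.0, 524.3 and 542.9 CPM at P22 and 515.8, 583.1 and 680.0 at P66, with only a small overlap. It was not called in Ctr wt (-0.05), MS wt (0.16) or MS ko animals (-0.04), and in Ctr wt animals, where 18.9% of all genes were called (8.36% higher and 10.5% lower), no member was called. Ntf3 (0.01, 95% interval -0.09 to 0.12, adjusted p = 0.885) and Ntf5 (0.03, -0.29 to 0.35, adjusted p = 0.876) were not called either.

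Among the cell type marker lists, that of mature oligodendrocytes had the largest median change with age: 8 of 8 tested mature oligodendrocyte markers were lower at P66 (median log2 change -1.42; Mag -1.39, Cldn11 -1.64). Astrocyte markers were lower in 3 of 3 tested (median -0.18) and those of oligodendrocyte precursors in 3 of 3 (median -0.40), while dentate granule cell markers were higher in 3 of 7 and lower in 1. The lower one was Prox1 (-0.25). CA pyramidal cell markers were higher in 3 of 10 and lower in 4 (median -0.02), with Slc17a7 among the lower ones (-0.16). Of the lists of neighbouring tissues, meninges markers were lower in 3 of 5 (median -0.46), neocortex markers in 4 of 6 (median -0.23), ependyma markers in 2 of 4 (median -0.25) and thalamus and habenula markers in 2 of 6, with 1 higher (median -0.15). The part of these 4 tissues in the changes of Bdnf and Sort1 was not tested. Choroid plexus markers were called in 0 of 9 (median -0.13). With mean scores of choroid plexus and oligodendrocyte markers as covariates, the change of Sort1 was 0.07 ± 0.0556 (adjusted p = 0.465) and that of Bdnf -0.24 ± 0.0993 (adjusted p = 0.102), and neither was called. The oligodendrocyte score itself separated the ages (r = -0.89 with age over 69 libraries), and the errors of that fit were wider. The part of these cells in either change was not tested further. With scores of dentate granule and CA pyramidal cells as covariates, added after the data were seen, the change of Bdnf was -0.15 ± 0.0403 (adjusted p = 0.000922) and that of Sort1 was 0.12 (adjusted p = 2.7e-05).

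**Figure D2:**
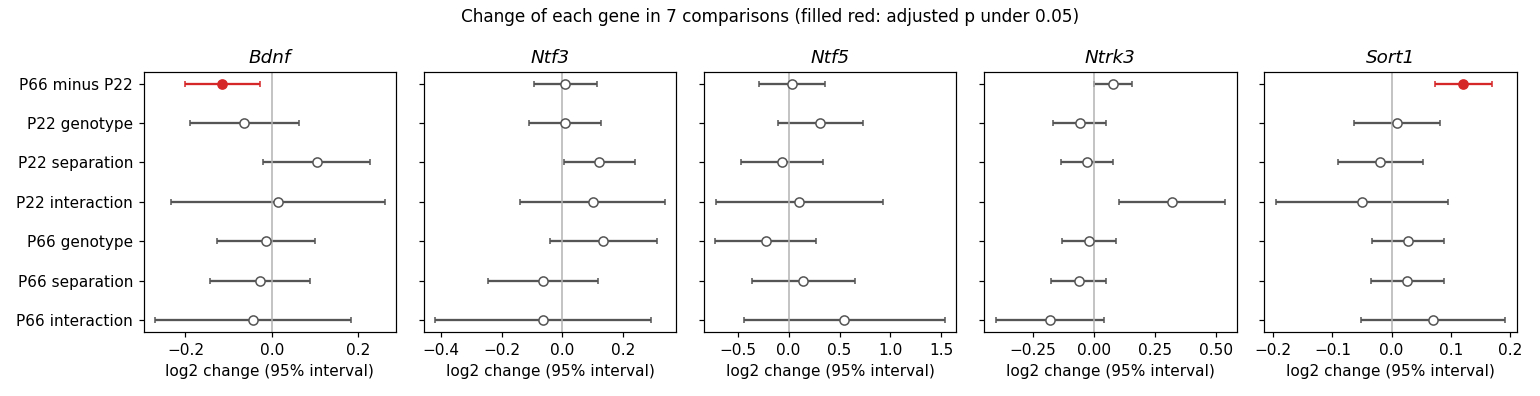
Log2 change of each gene in 7 comparisons, with the point as the estimate and the bar as its 95% interval; red filled points have an adjusted p under 0.05. Only the changes with age of Bdnf (-0.11) and Sort1 (0.12) are called, and the P22 interaction of Ntrk3 (0.32) is the largest uncalled value whose interval leaves out 0. Each panel has its own axis range.

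Genotype and separation were compared at each age to see whether the loss of Cdh13 or early separation altered the supply of neurotrophins or their receptors. No member was called for genotype, separation or their interaction at either age, by edgeR, DESeq2 or limma-voom. At P22 the same held for all genes: 0% of 7036 were called for genotype, 0% for separation and 0% for the interaction, with 289, 217 and 596 genes at an unadjusted p under 0.05. At P66 the share called was 0.0571% for genotype, 0.371% for separation and 0% for the interaction of 7001 genes. Of the 5 members, 1 had an unadjusted p under 0.05 for separation at P22 (Ntf3) and 1 for the interaction at P22 (Ntrk3), and 0 in the other 4 comparisons. Among the 28 pairs of groups, both ages included, 0 pairs were without overlap for each of the 5 members. Of all genes tested 16% had 1 or more such pairs, so most genes had none either.

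Bdnf differed between separated and control animals at P22 by a log2 change of 0.10 ± 0.0629 (95% interval -0.02 to 0.23, adjusted p = 0.999; 15 of 21 separated animals above the control median of their genotype). At P66 the change was -0.03 (-0.14 to 0.09, adjusted p = 0.914; 6 of 17 above). For genotype it was -0.06 (-0.19 to 0.06) at P22 and -0.01 (-0.13 to 0.10) at P66, and for the interaction 0.01 (-0.23 to 0.26) and -0.04 (-0.27 to 0.18). The intervals of genotype and separation thus reach at most 0.23 on the log2 scale, while those of the interactions are wider.

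Ntf3 ran from 14.96 to 20.4 CPM (median 19.4) in Ctr wt and from 13.7 to 25.5 (median 19.1) in MS wt animals at P22. The knockout groups of that age ran from 16.4 to 22.1 CPM (median 17.99, Ctr) and from 18.5 to 26.4 (median 20.6, MS). The separation change was 0.12 ± 0.0605, with 15 of 21 above the control median of their genotype (unadjusted p = 0.0493, adjusted p = 0.999). At P66 the medians were 18.8, 18.6, 19.97 and 20.1 CPM in Ctr wt, MS wt, Ctr ko and MS ko animals, over a span from 12.9 to 27.3 CPM. There the separation change was -0.06 (95% interval -0.25 to 0.12) and the genotype change 0.14 (-0.04 to 0.31, 10 of 14 knockouts above the wildtype median of their rearing).

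Ntrk3 gave the smallest p of the family in these comparisons. At P22 the lowest, median and highest levels were 437.0, 580.7 and 731.0 CPM in Ctr wt animals and 450.4, 497.9 and 607.2 in MS wt animals. They were 462.5, 541.6 and 713.7 CPM in MS ko animals, beside the values of Ctr ko animals given above. The medians were thus lower with separation in wildtype and higher in knockout animals, with broad overlap. The interaction was 0.32 ± 0.111 (95% interval 0.10 to 0.54, unadjusted p = 0.00634, adjusted p = 0.584). Its parts were -0.19 ± 0.0776 for separation in wildtype and 0.13 ± 0.0785 in knockout animals, neither called (0% of all genes were called in either). Within control animals the genotype change of Ntrk3 was -0.22 ± 0.0813 (unadjusted p = 0.0103, adjusted p = 0.389; 0% of all genes called). In the alternatives the interaction ran from 0.17 to 0.35, and it was never called. The lowest value came with scores of dentate granule and CA pyramidal cells as covariates (0.17 ± 0.0874), against markers of dentate granule cells that had a median interaction of 0.24 over 7 tested genes. Choroid plexus markers had a median interaction of -1.25 at P22 over 9 tested genes, 0 of them called, and with choroid plexus and oligodendrocyte scores as covariates that of Ntrk3 was 0.22 ± 0.117. The part of these tissues in the result was not tested further. At P66 the medians were 570.4, 591.9, 583.1 and 517.0 CPM in Ctr wt, MS wt, Ctr ko and MS ko animals, and the interaction was -0.18 (-0.40 to 0.04, adjusted p = 0.795). The difference between the ages was -0.50 ± 0.160 (95% interval -0.81 to -0.18, unadjusted p = 0.0029, adjusted p = 0.2995), where 0.014% of all genes were called and 1000 had an unadjusted p under 0.05. For age by genotype 0% and for age by separation 0.0421% of all genes were called, and no member.

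Sort1 had the narrowest intervals. Its change with genotype was 0.01 (95% interval -0.06 to 0.08) at P22 and 0.03 (-0.03 to 0.09) at P66, and that with separation -0.02 (-0.09 to 0.05) and 0.03 (-0.04 to 0.09). The interactions were -0.05 (-0.20 to 0.09) and 0.07 (-0.05 to 0.19). Ntf5, at a few counts per library, had the widest: 0.31 (-0.10 to 0.73) for genotype at P22, -0.22 (-0.72 to 0.27) at P66, and 0.55 (-0.44 to 1.53) for the interaction at P66. Group medians of Ntf5 ran from 0.59 CPM in MS wt animals at P22 to 0.868 in Ctr wt animals at P66, and single libraries from 0.0813 to 1.84. Between the cohorts no member differed past the threshold (0% of all genes called; Sort1 was nearest at -0.05, 95% interval -0.10 to 0.00, cohort 2 minus cohort 1).

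Ntf3 and Bdnf at both ages, and Ntrk3 at P22, varied between animals of a group along with the markers of dentate granule cells, the neurons that are a main site of Ntf3 expression; Sort1 and Ntf5 did not pass this test at either age. For each library the mean log2 CPM of the 7 dentate markers (Prox1, C1ql2, C1ql3, Calb1, Tdo2, Lct and Dock10) was taken, group and cohort means were removed, and the rest was correlated with that of each member within each age. Over 20 relations of 5 members with the dentate and CA scores, p-values come from 100000 permutations within groups with Benjamini-Hochberg adjustment. Scores of the other marker lists were related to the members over all 69 libraries as a description with no test. The strongest of these r was -0.54 for Ntf3 (interneurons), -0.50 for Ntrk3 (oligodendrocyte precursors) and -0.38 for Bdnf (ependyma). For Sort1 it was 0.39 (astrocytes) and for Ntf5 0.24 (choroid plexus). The dentate score gave 0.74, 0.52, 0.51, 0.01 and 0.24 there, in the same order. Relations were thus not particular to dentate markers. All values of a library share its dissection, depth and scaling. Ntf3 followed the dentate score at P22 (Pearson r = 0.70, n = 38, permutation p = 2e-05, adjusted p = 0.000133; Spearman rho = 0.58, permutation p = 0.00054, adjusted p = 0.0036). At P66 r was 0.77 and rho 0.77 (n = 31, permutation p = 1e-05 for both, the smallest these permutations can give; adjusted p = 1e-04 and 2e-04). Without the 2 libraries farthest from the median score r was 0.57 at P22 and 0.73 at P66. In cohorts 1 and 2 it was 0.64 and 0.72 at P22, and 0.48 and 0.93 at P66.

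Ntrk3 did so most clearly at P22 (r = 0.70, rho = 0.63; permutation p = 1e-05 and 3e-05, adjusted p = 1e-04 and 3e-04), with r = 0.68 without the 2 farthest libraries and 0.69 and 0.72 in the cohorts. At P66 it did not pass (r = 0.38, rho = 0.44; permutation p = 0.0407 and 0.0195, adjusted p = 0.0741 and 0.0558; 0.31 without the farthest libraries, 0.30 and 0.48 in the cohorts). Bdnf gave r = 0.51 and rho = 0.44 at P22 (permutation p = 0.00092 and 0.00729, adjusted p = 0.00368 and 0.0243) and r = 0.60 and rho = 0.53 at P66 (permutation p = 0.00178 and 0.00607, adjusted p = 0.00593 and 0.0243). Without the 2 farthest libraries r of Bdnf was 0.41 and 0.51, and in the cohorts it was 0.58 and 0.50 at P22, and 0.40 and 0.80 at P66. Sort1 stood apart, with r = 0.03 at P22 (rho = -0.11; permutation p = 0.849 and 0.549, adjusted p = 0.893 and 0.603) and -0.02 at P66 (rho = 0.02; permutation p = 0.909 and 0.916, adjusted p = 0.909 and 0.916). For Ntf5 no relation with the dentate score passed. With CA pyramidal markers Ntrk3 went the opposite way at P22 (r = -0.51, rho = -0.46; permutation p = 0.00062 and 0.00372, adjusted p = 0.0031 and 0.0186), at -0.40 without the farthest libraries and -0.27 and -0.65 in the cohorts. By r and not by rank, the CA score was also related at P66 to Bdnf (r = -0.44, rho = -0.41; permutation p = 0.0187 and 0.029, adjusted p = 0.0467 and 0.0675) and to Ntf5 (r = -0.45, rho = -0.38; permutation p = 0.0175 and 0.0418, adjusted p = 0.0467 and 0.0761). The group means of the dentate score ran from 7.14 ± 0.204 (SD, n = 9, Ctr ko P22) to 7.35 ± 0.287 (SD, n = 7, Ctr ko P66).

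**Figure D3:**
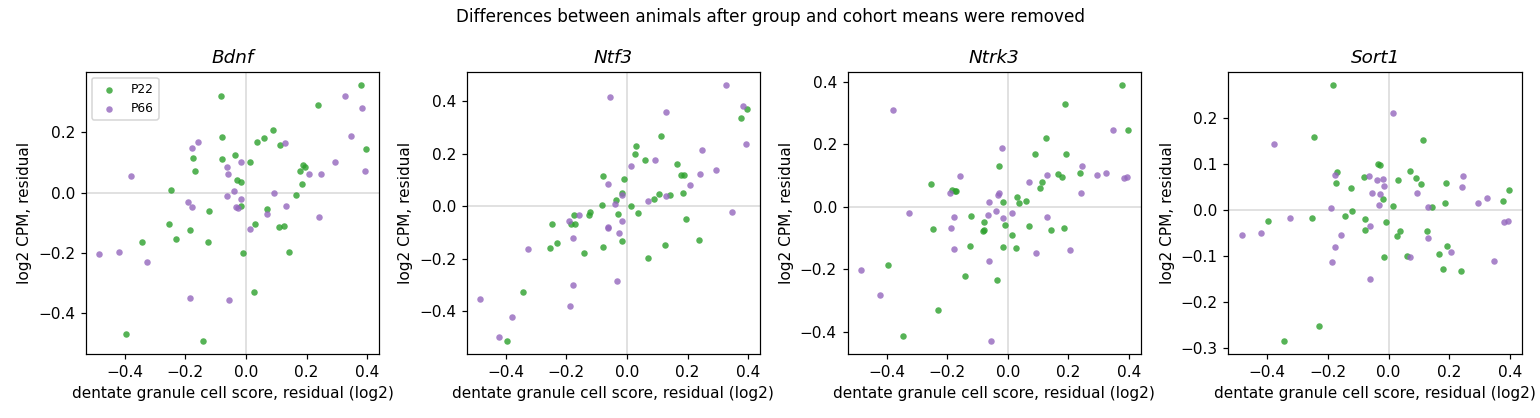
Residual log2 CPM of 4 members against the residual mean log2 CPM of 7 dentate granule cell markers, 1 point per animal (green P22, purple P66), after group and cohort means were removed. Points of Ntf3 rise from left to right at both ages (r = 0.70 and 0.77), and those of Sort1 show no slope (r = 0.03 and -0.02).

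Among the members themselves, Bdnf varied with Ntrk3 at P22 (r = 0.50, rho = 0.45; permutation p = 0.00232 and 0.0061, adjusted p = 0.0155 and 0.0975 over 20 relations). At P66 the values were r = 0.60 and rho = 0.49 (permutation p = 0.00138 and 0.00975, adjusted p = 0.0138 and 0.0975), so the relation passed by Pearson's r and not by rank at both ages. In cohorts 1 and 2 r was 0.44 and 0.54 at P22, and 0.62 and 0.57 at P66, and without the 2 farthest libraries 0.43 and 0.51. For pairs of members, the farthest libraries were those farthest from the median in the first gene named, after group and cohort means were removed. Libraries far only in the second gene were thus kept. The ligand and receptor pair Ntf3 and Ntrk3 gave r = 0.52 at P22 (rho = 0.38; permutation p = 0.00048 and 0.0192, adjusted p = 0.0096 and 0.124; 0.46 without the 2 farthest libraries). At P66 r was 0.04, with -0.42 in cohort 1 and 0.42 in cohort 2 (permutation p = 0.842, adjusted p = 0.842). Bdnf and Ntf3 at P22 had r = 0.47 (rho = 0.37, permutation p = 0.00471 and 0.0248, adjusted p = 0.0236 and 0.124). This r fell to 0.28 without the 2 farthest libraries, and in cohorts 1 and 2 it was 0.57 and 0.44. At P66 the pair had r = 0.45 (rho = 0.40; permutation p = 0.0298 and 0.0481, adjusted p = 0.119 and 0.192) and did not pass. There r was 0.61 without the 2 farthest libraries, and it was near 0 in cohort 1 (-0.0055) and 0.84 in cohort 2.

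The genes whose level over the 69 libraries was most like that of each member were ranked by Pearson r of log2 CPM over 7131 genes, as a description with no test. For Ntf3 they were Fam163b (r = 0.80), Lct (0.74) and Mcm6 (0.74). Lct, the lactase gene, is one of the dentate markers used above. After group and cohort means were removed r was 0.79, 0.77 and 0.80 in the same order. For Bdnf they were Plppr4, a phospholipid phosphatase-related protein of synapses (0.67), the transcription factor Nfib (0.67) and Arl5b (0.65). Ntrk3 had the closest partners, Med12l (0.88), the RNA-binding protein Celf2 (0.88) and the actin regulator Enah (0.88). Sort1 was followed by Rapgef2 (0.83), Arhgef17 (0.83) and Cds2 (0.83). Those of Ntf5 were weak: Agbl2 (0.44), 4931422A03Rik (0.40) and Ints12 (0.40).

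The rest of the pathway was read from lists of known genes. Of the genes that sort or cleave proneurotrophins, 10 of 18 listed were tested, and with age 4 were higher, 4 lower and 2 not called (median log2 change 0.03, against 0.01 over all genes). Of all genes tested 52% were called with age, 26.2% higher and 25.8% lower, and the counts of this and the next lists are to be read against these shares. The lower ones included Plat, the tissue plasminogen activator that starts the extracellular cleavage of proBDNF by plasmin (-0.31 ± 0.0374, adjusted p = 1.11e-10), and Furin, a convertase that cleaves proneurotrophins inside the cell (-0.08 ± 0.0262, adjusted p = 0.0107). Higher were Sort1, the proprotein convertase Pcsk6 (0.15), Scg2 of the secretory granules (0.10) and Cadps2, which primes dense-core vesicles for release (0.15). Without the 6 libraries low in choroid plexus markers 4 were higher and 3 lower.

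Of the Trk adaptors and signalling genes 23 were tested (51 listed): 10 were lower, 4 higher and 9 not called with age (median -0.04), so that 14 of 23 were called beside 52% of all genes. The small GTPase genes Nras (-0.45 ± 0.0300, adjusted p = 8.34e-21) and Rap1a (-0.31) fell, as did the phosphatase gene Ptpro (-0.43), the exchange factor gene Rapgef1 (-0.21) and the adaptor gene Shc4 (-0.22). Of 3 tested partners of the p75 receptor (14 listed) 2 were higher, Ripk2 (0.11) and Traf6 (0.06), and 0 were called without the 6 libraries low in choroid plexus markers; Ndn was at 0.01. Genes that control Bdnf transcription were higher in 6 of 11 tested (26 listed) and lower in 1 (median 0.07), beside 26.2% of all genes higher and 25.8% lower. The higher ones were Bhlhe40 (0.24), Crtc2 (0.14), Arnt2 (0.12), Mef2a (0.14), Mef2d (0.07) and Crtc3 (0.08), the Crtc genes being coactivators of CREB; Creb1 itself stood at 0.01 ± 0.0507. Of activity-regulated genes, 2 of 10 tested (26 listed) were higher and 1 lower (median 0.02), with Fosb at 0.44 ± 0.102 (adjusted p = 0.000219), Scg2 at 0.10 and Nptx2, the neuronal pentraxin gene, at -0.47 ± 0.0618 (adjusted p = 1.37e-09). No gene of these lists was called for genotype, separation, their interaction or a difference of these between the ages, and at most 3 genes of a list had an unadjusted p under 0.05 in such a comparison.

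**Figure D4:**
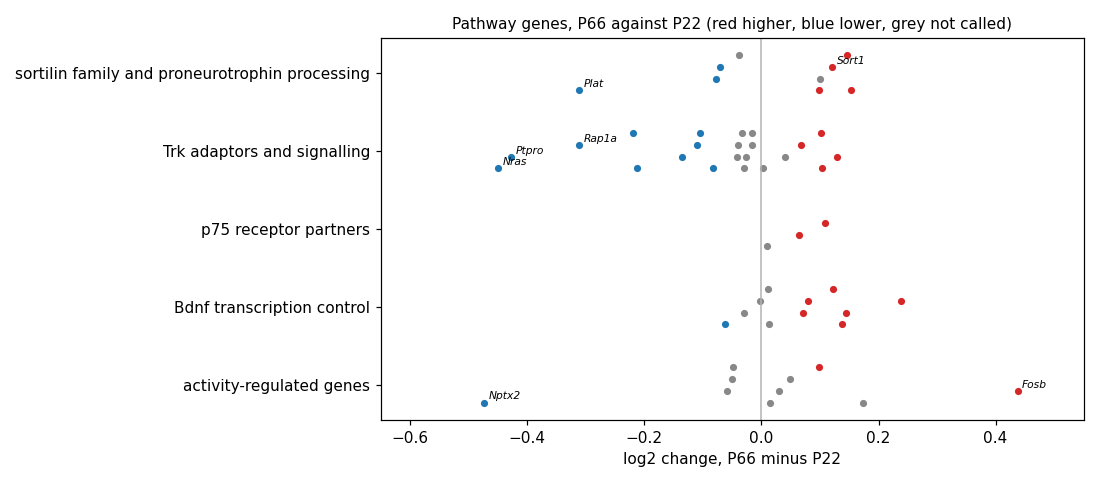
Log2 change with age (P66 minus P22) of tested genes of 5 pathway lists, 1 point per gene (red higher, blue lower at adjusted p under 0.05, grey not called). Sort1 and genes that moved far are named; of 11 genes that control Bdnf transcription 6 are higher and 1 is lower, beside 26.2% and 25.8% of all genes, and Nptx2 (-0.47) and Fosb (0.44) lie at opposite ends of the activity-regulated genes.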

How the data were processed

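Hippocampal RNA of 69 animals was sequenced. The authors deposited 1 table of raw read counts per gene, with no scaling. The submitters' processing notes name cutadapt 1.16, FastQC 0.11.4, limma 3.34.9 and edgeR; what aligned and counted the reads, the strand setting and the genome build were not given in the sources used here. This table as held ends on chromosome 8; 1 broken record was left out, 99.55% of gene IDs matched GENCODE M21, and 0 columns belonged to no sample. Within groups 272 pairs of libraries were compared, and chi-square per degree of freedom was 4.6 or more, so none was a duplicate.

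In R 4.3.3, edgeR 4.0.16 (filterByExpr with minimum count 10 and total 15, TMM, quasi-likelihood F test, SE from the F value) was fitted within each age on 4 groups plus cohort, and over all libraries for age. A gene was called at a Benjamini-Hochberg adjusted p under 0.05 over all genes tested. Intervals are 95% (normal). The test was checked on simulated data. Of 50 genes changed 1.1-fold it recovered 60% for age and 32% for genotype at P66. At 1.2-fold it recovered 86% and 70%, so changes of this size can be missed. The simulation changed 50 genes at each fold, whereas in the data 52% of all genes were called with age and 0.0571% for genotype at P66. The adjusted p threshold thus fell at other unadjusted p-values than in the data, and these shares do not measure the power there. Members and lists were chosen with earlier results of these data known. Named are all members, up to 6 genes of a pathway list with the smallest p for age, called list genes in other contrasts, and the 3 genes most like each member; some genes picked by that rule are left unreported, and Furin, Ripk2, Traf6, Ndn and Creb1 as well as Mag, Cldn11, Prox1 and Slc17a7 were named in addition, after their values were seen. Levels are CPM, per kb where genes are compared, and scores are mean log2 CPM (prior count 2) of a marker list. The alternatives were DESeq2 1.42.0, limma-voom (limma 3.58.1), RLE scaling, no filter, a filter of 1 CPM in 7 libraries, either cohort alone, no term for cohort, marker scores as covariates, leaving out libraries far in choroid plexus score, 1 fit of all libraries, and leaving out each library. P-values treat animals as independent.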

Additional observations from a re-analysis of the deposited data

Results flagged for a closer look

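Within groups of 7 to 10 animals, 35 sets of a gene in a group were searched for a single animal far from the rest by Dixon's criterion, which chance meets in about 1 of 20 sets; 6 met it, and the group of 11 was not tested. The Ctr wt animal C1-32 at P22 was lowest in Ntf3 (14.96 CPM, next 18.5) and in Sort1 (1286 CPM, next 1492). The Ctr ko animal C2-43 at P22 was lowest in Ntrk3, at 400.0 CPM (next 477.3). The MS wt animal C1-55 at P66 was highest in Sort1, at 1963 CPM (next 1709). Ntf5 was highest in the Ctr ko animal C2-34 at P22, at 1.785 CPM from 23 counts, and in the MS ko animal C2-12 at P22, at 1.841 CPM from 27 counts. Leaving out C1-32 gave a change of Sort1 with age of 0.11, still called, and of Ntf3 with separation at P22 of 0.10. Leaving out C2-12 gave a genotype change of Ntf5 at P22 of 0.21, not called.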

How the results depend on the processing

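Of 409 values under other settings, leaving out single libraries aside, 367 kept their direction and call, 3 lost the call and 39 changed sign; none of the 39 was called either way. The lost calls were the changes with age of Bdnf with choroid plexus and oligodendrocyte scores as covariates (-0.235, 0 of 5 members called) and in cohort 2 alone (-0.0582, 1 of 5 called), and of Sort1 with these scores (0.0688). The causes were not tested. With choroid plexus and oligodendrocyte scores the sign changed for Ntf3 age -0.0284, Ntf5 age -0.209, Ntrk3 age -0.205, Bdnf P22 interaction -0.0821, Ntrk3 P22 separation 0.00964, Bdnf P66 interaction 0.00339 and Bdnf P66 separation 0.00585. With dentate and CA scores, added after the data were seen, the sign changed for Ntf3 age -0.0754, Ntf5 age -0.00376, Bdnf P22 interaction -0.108, Ntf3 P22 interaction -0.0722, Bdnf P66 interaction 0.0199 and Ntf3 P66 interaction 0.0374. Without the libraries far in choroid plexus score the sign changed for Ntf3 age -0.0203, Sort1 P22 genotype -0.016, Bdnf P22 interaction -0.0677 and Ntf3 P66 interaction 0.0264. In cohort 1 alone the sign changed for Ntf5 P22 genotype -0.437, Ntf3 P22 interaction -0.0606, Ntf5 P22 interaction -1.10, Bdnf P66 interaction 0.0687, Ntf3 P66 interaction 0.201 and Bdnf P66 separation 0.00703. In cohort 2 alone the sign changed for Ntf3 age -0.0457, Ntf5 age -0.0421, Bdnf P22 genotype 0.00392, Ntf3 P22 genotype -0.0272, Sort1 P22 genotype -0.0452, Bdnf P22 interaction -0.0184, Sort1 P22 interaction 0.0239, Ntrk3 P22 separation 0.00835, Sort1 P22 separation 0.00373, Ntrk3 P66 genotype 0.0482, Ntrk3 P66 interaction 0.0681 and Ntrk3 P66 separation 0.0377. The sign also changed for Ntf3 age with limma-voom (-0.000883), Bdnf P22 interaction with all libraries in 1 fit (-0.00413), Bdnf P22 interaction with no cohort term (-0.00316) and Bdnf P22 interaction with no count filter (-0.00294). Leaving out each library in turn moved a sign or a call in these results, with ranges of -0.0192 to 0.0351 for Ntf3 P22 genotype, -0.00902 to 0.0221 for Sort1 P22 genotype, -0.0376 to 0.0601 for Bdnf P22 interaction, -0.11 to 0.371 for Ntf5 P22 interaction, -0.179 to 0.0576 for Ntf5 P22 separation, -0.0314 to 0.015 for Bdnf P66 genotype, -0.0462 to 0.00995 for Ntrk3 P66 genotype, -0.0973 to 0.00976 for Bdnf P66 interaction, -0.133 to 0.00815 for Ntf3 P66 interaction, -0.131 to -0.101 for Bdnf age, -0.0118 to 0.0331 for Ntf3 age, -0.0137 to 0.0956 for Ntf5 age and 0.058 to 0.0932 for Ntrk3 age; 1 to 3 members were then called with age. Ntf5 gave no value under the stricter filter in the 6 comparisons within an age. No paired analysis was possible because each animal was killed at P22 or at P66 and gave 1 library. Some animal numbers recur between cohorts and between rearing groups, and a shared number was not read as the same mouse. Depth limits Ntf5, and the errors assume independent animals.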
